A study of Glycine max with 16 samples.

Results

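Flowering in soybean is timed in the leaf by repressors of the E1 family and by proteins of the FLOWERING LOCUS T (FT) family. Their transcripts were followed in dried and in watered leaves. The 8 genes were chosen by name and not by a rule on their values, although earlier results of these data were known. They are E1 (Glyma.06G207800) and its homologs E1La (Glyma.04G156400) and E1Lb (Glyma.04G143300), the florigen genes FT2a (Glyma.16G150700), FT2b (Glyma.16G151000) and FT5a (Glyma.16G044100), and the FT homologs FT4 (Glyma.08G363100) and FT1a (Glyma.18G298900). They are 8 of the 56044 genes in the deposited table. The names were assigned to these identifiers from prior knowledge, because the table holds identifiers alone. RefSeq (assembly Glycine_max_v4.0) holds 7 of the 8 names as gene symbols, each on the chromosome that the identifier carries, which are chromosomes 4, 6, 16 and 18. The symbol FT4 was not found there, and its identifier carries chromosome 8.

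As background, E1 is a legume protein with a B3-like domain that acts in the nucleus as a repressor of flowering. Long days raise E1 through the phytochrome A photoreceptors, and E1 in turn holds down FT2a and FT5a. FT proteins made in leaf veins travel to the shoot apex and there, with a bZIP partner, switch on genes of flower formation. Transcripts of E1 and of FT genes also change with the hour of the day.

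Leaf RNA came from the 3 soybean lines A004A, A005B and B010C, which the series describes as over-expressing GmWRKY54, a WRKY transcription factor gene, and from the null line, which serves as control and is called B001A in some labels. Trifoliate leaves of seedlings aged 2 weeks, germinated on soil in a greenhouse with sunlight, were taken after 6 h of drying in air or from watered plants. The promoter of the transgene, the number of plants behind a sample and the hour of harvest were not given in the sources used here. The labels list 2 samples for each of 8 groups, and the table gives 1 value per group, in RPKM (reads scaled to gene length and to the mapped reads of the library), so there is no replicate value within a group and the lines serve as units. The labels list no watered leaves kept for an equal 6 h, so drying and elapsed time cannot be told apart.

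The RPKM columns summed to between 636011 and 818267, with 28847 to 31333 genes at 1 RPKM or more, and the reads behind a value are unknown. Of 3 identifiers listed as Rubisco small subunit genes, which mark green leaf, every value lay between 285 and 951 RPKM in dehydrated leaves. In watered leaves every value lay between 3271 and 8034 RPKM. All 3 were called lower after drying, as were 40.0% of all genes tested. Their part in the results on members was not tested. Of 5 listed for floral identity and the shoot apex, the highest value was 0.585 RPKM in dehydrated and 0.102 RPKM in watered leaves. These 5 belong to 8 listed floral identity and inflorescence genes, whose values reached 39.7 RPKM in dehydrated and 55.7 RPKM in watered leaves. No source used here pairs GmWRKY54 with an identifier. Glyma.10G011300, a candidate written down from prior knowledge, stood in dehydrated leaves at 119 RPKM in A004A, 238 in A005B, 18.03 in B010C and 11.7 in null, and in watered leaves at 51.1, 73.0, 9.05 and 11.5 RPKM in the same order of lines. A004A and A005B thus lay well above null in both treatments, while watered B010C lay below null, which goes against its label if the candidate is the transgene. In 39 genes A004A and null were at least 2-fold above the other watered columns while A004A and A005B were at least 2-fold above the other dehydrated ones. With watered A005B in place of watered null, 2 genes did so. Results were therefore also computed with these watered labels exchanged, although the candidate Glyma.10G011300, at 73.0 RPKM in watered A005B against 11.5 RPKM in watered null, runs as labelled.

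The members split into genes that the leaves expressed and genes at the edge of detection. FT5a was the only member at 1 RPKM or more in every column. E1 was under 1 RPKM in 1 column (watered B010C), E1Lb in 2 (dehydrated A004A and watered B010C), E1La in 4 (dehydrated A004A, A005B and null, and watered null), and FT4 in 6 (all but dehydrated A005B and dehydrated B010C). FT2a, FT2b and FT1a were under 1 RPKM in all 8 columns. Of the 64 values, 37 were under 1 RPKM and 18 were listed at 0. Lowering the threshold to 0.5 RPKM left FT2a, FT2b and FT1a below it everywhere.

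E1, the repressor that gives the family its name, was the member with the clearest difference between dried and watered leaves. It stood at 4.75 RPKM in A004A, 7.36 in A005B, 7.05 in B010C and 6.11 in null after drying. In watered leaves it stood at 1.299 RPKM in A004A, 1.97 in A005B, 0.769 in B010C and 1.24 in null. Every dehydrated column lay above every watered one, and the lowest dehydrated value was that of A004A. The ratio of dehydrated to watered RPKM was 3.66 in A004A, 3.74 in A005B, 9.17 in B010C and 4.92 in null. On the log2(RPKM + 1) scale, which understates changes of low genes, E1 rose on drying by 1.67 ± 0.17 (SE over 4 lines, limma, Benjamini-Hochberg adjusted p = 9.49e-05). Across the 34400 genes tested, 91.1% had a lower signed change than E1. Among all 56044 genes of a column, E1 took percentiles 69.6 to 74.4 in dehydrated and 43.3 to 52.2 in watered leaves.

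E1La and E1Lb, close homologs that also repress FT genes, did not follow E1. E1La stood at 0.539 RPKM in A004A, 0.833 in A005B, 1.15 in B010C and 0.603 in null after drying. Its watered values were 1.24 RPKM in A004A, 1.49 in A005B, 1.54 in B010C and 0.947 in null. Each line had less E1La after drying, while the groups overlapped because dehydrated B010C lay above watered null. In limma E1La fell by 0.38 on the log2 scale (SE 0.14, adjusted p = 0.0412). This call was lost under quantile normalization (-0.15, adjusted p = 0.338), under median-of-ratios scaling (-0.26, adjusted p = 0.120), and when any line was left out (limma adjusted p between 0.0544 without null and 0.142 without A004A). The change itself stayed between -0.42 and -0.32 with a line left out.

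E1Lb stood at 0.928 RPKM in A004A, 1.11 in A005B, 2.44 in B010C and 1.67 in null after drying. In watered leaves the values were 1.39 RPKM in A004A, 1.97 in A005B, 0.894 in B010C and 1.12 in null. Dehydrated leaves held more E1Lb in B010C and null and less in A004A and A005B, so the groups overlapped. The mean log2 difference was 0.10 ± 0.24 (SE over 4 lines, limma adjusted p = 0.726), and without B010C it was -0.16 (limma adjusted p = 0.561). E1La and E1Lb are similar in sequence, and the counting of reads shared between copies was not given in the sources used here, so the division of reads among the E1 copies is uncertain.

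**Figure D1:**
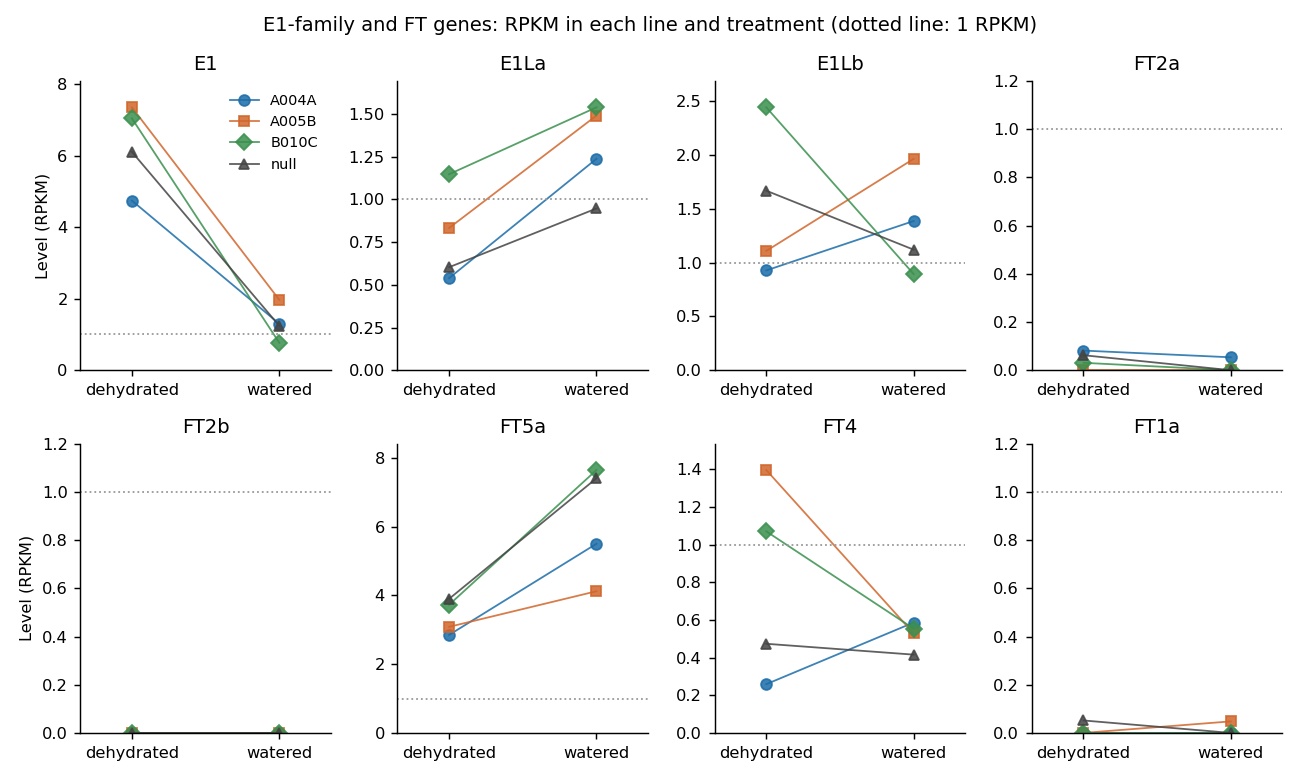
Each panel shows 1 gene, with RPKM on the vertical axis (scales differ between panels, all from 0) for dehydrated and watered leaves, a line joining the 2 values of each soybean line, and a dotted line at 1 RPKM. E1 lies between 4.75 and 7.36 RPKM in the dehydrated columns and between 0.769 and 1.97 in the watered ones, FT5a is lower after drying in each line, and FT2a, FT2b and FT1a lie along the bottom of their panels.

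The share of E1 in its family therefore differed between treatments. E1 made up 76.4% of the summed RPKM of E1, E1La and E1Lb in dehydrated A004A, 79.1% in A005B, 66.2% in B010C and 72.9% in null. In watered leaves the share was 33.1% in A004A, 36.3% in A005B, 24.0% in B010C and 37.5% in null, below all dehydrated shares. The family sum was 6.22 to 10.6 RPKM in dehydrated and 3.20 to 5.43 RPKM in watered leaves. The response of E1 exceeded that of E1La by 1.86 to 2.43 and that of E1Lb by 1.32 to 1.99 on the log2 scale, in 4 of 4 lines. An exact two-sided sign-flip test over the 4 lines gave p = 0.125 for each, the smallest value that 4 lines allow. That value is fixed once all 4 differences share a sign, so the test adds nothing to the count of lines.

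FT5a, a florigen that promotes flowering, had the highest level of the 5 FT members in every column and ran the other way from E1. After drying it stood at 2.85 RPKM in A004A, 3.08 in A005B, 3.73 in B010C and 3.90 in null. Watered leaves had 5.50 RPKM in A004A, 4.12 in A005B, 7.65 in B010C and 7.41 in null. All dehydrated values lay below all watered ones, and watered A005B came closest to the dehydrated range. The dehydrated to watered ratio was 0.518 in A004A, 0.749 in A005B, 0.487 in B010C and 0.526 in null. FT5a fell by 0.68 on the log2 scale (SE 0.14, limma adjusted p = 0.00384), and by 0.49 (SE 0.14, adjusted p = 0.0152) after median-of-ratios scaling.

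The size of the FT5a fall was not unusual for these leaves. The median change of all tested genes was -0.18 on the deposited scale, 0.015 with median-of-ratios scaling and -0.066 with quantile normalization, and 31.5% of tested genes had a lower signed change than FT5a. As a percentile among all genes of its column, FT5a ran from 60.9 to 64.7 in dehydrated and from 62.5 to 74.2 in watered leaves, and these ranges overlapped. Because whole leaves were used, fewer cells expressing FT5a and less FT5a RNA per cell cannot be told apart, and the same holds for each gene here.

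FT2a and FT2b, the remaining florigen genes, were nearly or wholly unread. FT2a, often described beside FT5a as a major florigen of soybean, stood after drying at 0.081 RPKM in A004A, 0.031 in B010C and 0.062 in null, and was listed at 0 in A005B. In watered leaves it stood at 0.054 RPKM in A004A and was listed at 0 in A005B, B010C and null. FT2b, a neighbour of FT2a with 1 protein-coding gene between them in RefSeq, was listed at 0 in all 8 columns. A listed 0 may stand for an estimate that failed, and values this low did not pass the filter for testing. In a limma fit of the 48953 genes kept when no filter was set, the drying difference of FT2a was 0.042 ± 0.028 (SE over 4 lines, adjusted p = 0.260) and that of FT1a 0.0013 ± 0.032 (adjusted p = 0.977).

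FT4 and FT1a are FT homologs that have been described as delaying flowering. FT4 stood after drying at 0.259 RPKM in A004A, 1.40 in A005B, 1.07 in B010C and 0.473 in null. Its watered values were close together, at 0.586 RPKM in A004A, 0.528 in A005B, 0.554 in B010C and 0.416 in null. Dehydrated A005B and B010C lay above all watered columns and dehydrated A004A below them. FT4 entered the test only through dehydrated A005B and B010C, and its mean log2 difference was 0.20 ± 0.19 (SE over 4 lines, limma adjusted p = 0.383). With a line left out it lay between 0.046 (without A005B) and 0.37 (without A004A). FT1a was listed at 0 in 6 columns and stood at 0.052 RPKM in dehydrated null and 0.048 RPKM in watered A005B.

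**Figure D2:**
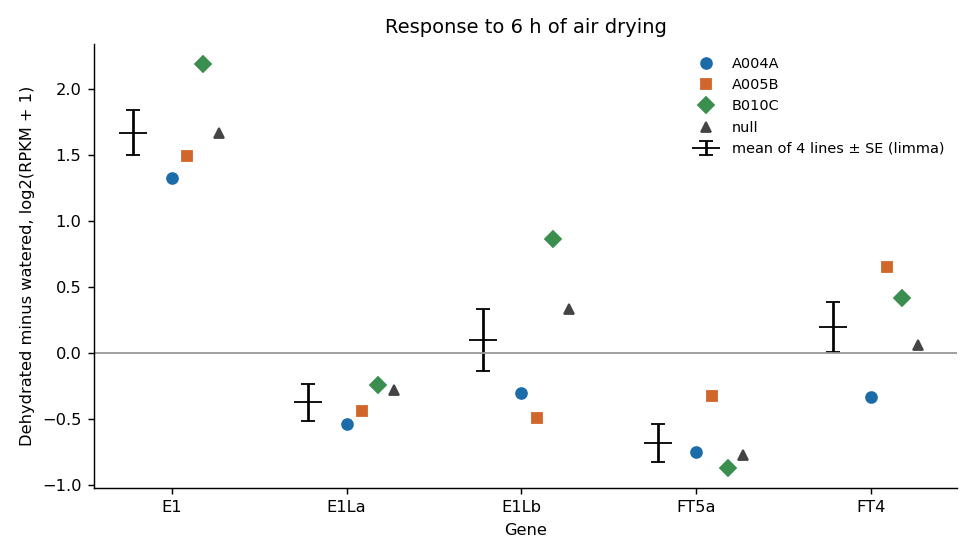
The difference between dehydrated and watered leaves on the log2(RPKM + 1) scale is shown for the 5 genes that passed the filter on low values, as a point per line and as the limma mean of 4 lines with its SE. The points of E1 all lie above 1, those of FT5a and E1La all lie below 0, and those of E1Lb and FT4 lie on both sides of 0.

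Of the 5 members that reached 1 RPKM in 2 or more columns, limma called 1 higher after drying (E1) and 2 lower (E1La and FT5a). Of all 34400 genes tested, 28.7% were called higher and 40.0% lower, so a share of this size is near the background and says nothing particular about the members as a set. Groups without overlap, as for E1 and FT5a, were likewise common, with dehydrated columns wholly higher in 27.5% and wholly lower in 37.5% of tested genes. E1 was the only member that differed at least 2-fold on the log2(RPKM + 1) scale, and did so in each line, where 16.7% of tested genes in A004A, 17.7% in A005B, 17.6% in B010C and 15.8% in null were at least 2-fold higher. No member was at least 2-fold lower in any line, against 28.3% of tested genes in A004A, 23.7% in A005B, 23.4% in B010C and 17.9% in null. These counts hold for a pseudocount of 1. With 0.1 in its place, E1La (-1.07 in A004A) and FT5a (-1.017 in B010C) were also 2-fold lower, and FT4 (1.25 in A005B) and E1Lb (1.36 in B010C) 2-fold higher. After median-of-ratios scaling E1Lb passed 2-fold in B010C (1.023).

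The order of levels among members, which RPKM allows because it is per length, changed at the top. E1 was the highest member and FT5a the next in all 4 dehydrated columns. FT5a was the highest in all 4 watered columns, and the following place went to E1Lb in A004A, to E1 in null and in A005B, where E1 and E1Lb were both at 1.97 RPKM, and to E1La in B010C. The 3 E1 copies had overlapping ranges in watered leaves, so their order there did not exceed the spread between lines. The level of E1 divided by that of FT5a was 1.67 in A004A, 2.39 in A005B, 1.89 in B010C and 1.57 in null after drying. In watered leaves the same ratio was 0.236 in A004A, 0.478 in A005B, 0.101 in B010C and 0.168 in null. Every dehydrated ratio lay above 1 and every watered ratio below it. A link between E1 and FT5a in these leaves was not tested.

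**Figure D3:**
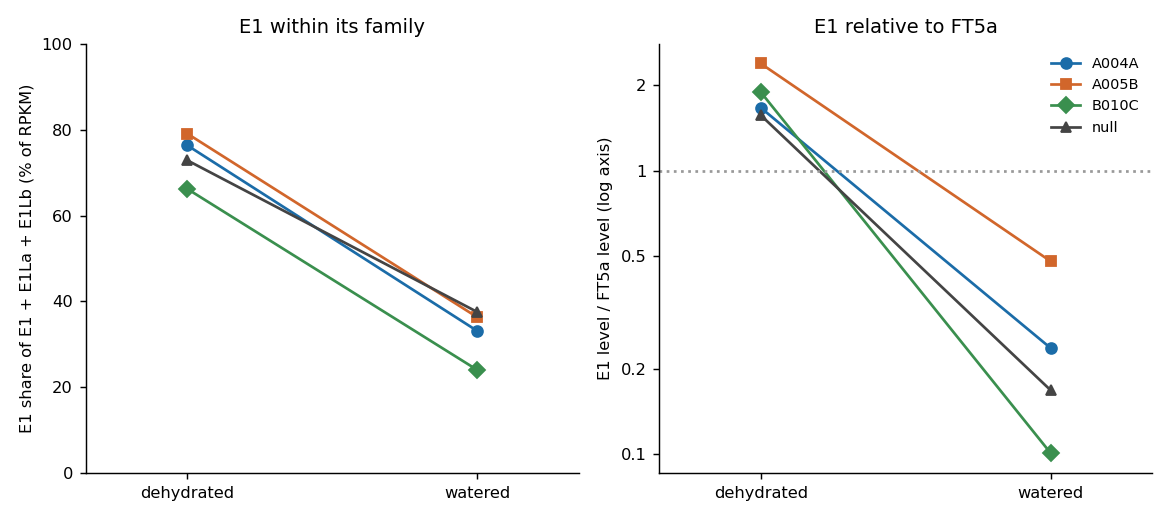
The left panel gives E1 as a percentage of the summed RPKM of E1, E1La and E1Lb, and the right panel gives the level of E1 divided by that of FT5a on a log axis, for dehydrated and watered leaves of each line. The E1 share is 66.2% to 79.1% in dehydrated and 24.0% to 37.5% in watered leaves, and the ratio crosses 1 (dotted line) in each of the 4 lines.

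No member passed the test for a difference between the transgenic lines and null. In dehydrated leaves the mean of the 3 transgenic lines differed from null by 0.035 ± 0.32 for E1, 0.19 ± 0.23 for E1La, -0.15 ± 0.37 for E1Lb, -0.22 ± 0.28 for FT5a and 0.32 ± 0.34 for FT4 (log2 ± SE, limma, 3 lines against 1, adjusted p from 0.667 to 0.971). In watered leaves the differences were 0.033 ± 0.32 for E1, 0.31 ± 0.23 for E1La, 0.16 ± 0.37 for E1Lb, -0.35 ± 0.28 for FT5a and 0.14 ± 0.34 for FT4 (limma adjusted p = 1 for each). E1La and FT4 lay above null in the 3 watered transgenic lines, and FT5a lay below null in the 3 dehydrated ones. Limma called 2 of 34400 genes in dehydrated leaves (0.00581%, both lower) and 0 in watered leaves, where 1103 genes (3.21%) had an unadjusted p under 0.05, against 14.7% in dehydrated leaves. With SEs of this size, such means leave differences of either sign possible, so they do not show the lines to be alike. FT4 entered the fit only through dehydrated A005B and B010C, both transgenic columns, so its comparison with null was not independent of the filter.

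Single lines carried the widest gaps. Dehydrated FT4 in A005B stood 0.70 above null on the log2 scale and in B010C 0.49 above it, whereas A004A stood 0.23 below (-0.23). Watered FT5a in A005B differed from null by -0.72, A004A by -0.37 and B010C by 0.041. No member reached a 2-fold difference from null in any line. In dehydrated leaves 2.76% of tested genes were at least 2-fold higher than null in A004A, 2.85% in A005B and 1.97% in B010C, and 8.10%, 3.26% and 0.985% were at least 2-fold lower in the same order of lines. In watered leaves 0.849%, 1.03% and 0.558% were higher and 1.54%, 1.25% and 1.09% lower, again in that order. With a pseudocount of 0.1 in place of 1, FT4 passed 2-fold in dehydrated A005B and B010C. These gaps are differences of single columns without a replicate check. FT4 passed the filter only through dehydrated A005B and B010C, the columns of its widest gaps.

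**Figure D4:**
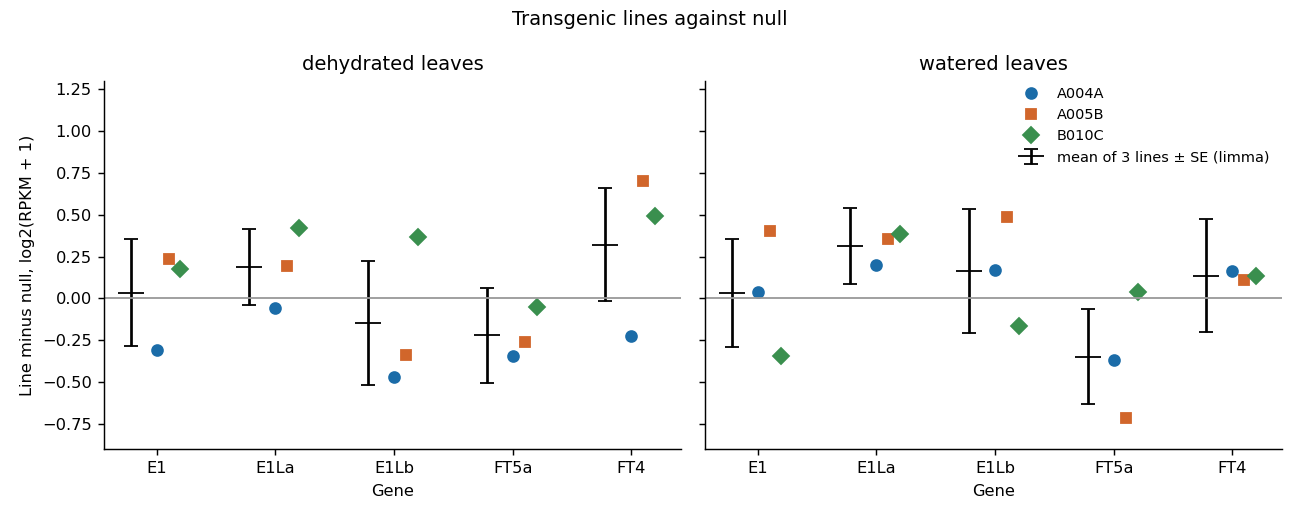
For the 5 tested genes, the difference of each transgenic line from null on the log2(RPKM + 1) scale is shown as a point, with the limma mean of the 3 lines and its SE, in dehydrated leaves on the left and watered leaves on the right. The widest points are FT4 in dehydrated A005B (0.70) and FT5a in watered A005B (-0.72). The SE bars of E1, E1Lb and FT4 cross 0 in both treatments.

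The response to drying itself was next compared between transgenic lines and null. The difference of responses was 0.0014 ± 0.46 for E1 and -0.13 ± 0.32 for E1La, and such SEs do not show equal responses. For E1Lb the difference of responses was -0.31 ± 0.52, for FT5a 0.13 ± 0.40 and for FT4 0.19 ± 0.48 (log2 ± SE, limma, 3 lines against 1, adjusted p from 0.872 to 0.9997 over the 5 genes). Of all genes tested, 1 (0.00291%) was called, and it was no member, while 9.56% had an unadjusted p under 0.05. The transgenic mean for E1Lb joined responses of opposite sign, -0.31 in A004A and -0.49 in A005B but 0.86 in B010C, beside 0.33 in null. FT4 was higher after drying in A005B, B010C and null and lower in A004A. These patterns of single columns were not tested. Because FT4 was kept only through dehydrated A005B and B010C, its difference of responses was not independent of the filter.

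Other genes of the flowering pathway were followed through 32 further identifiers listed from prior knowledge. No source used here pairs these identifiers with names, so they are described as listed groups. Of the 32, 20 passed the filter on low values, and 3 were called higher and 11 lower after drying (limma), with a median log2 change of -0.53, beside 28.7% higher, 40.0% lower and a median of -0.18 over all genes tested. Nothing particular to these lists is read from the counts. Of 5 listed as phytochromes, 4 were called lower and 1 was not called, with a median of -0.88. Of 4 listed as CONSTANS-like, 3 were tested and called lower, with a median of -1.06. Of 9 listed for the circadian clock and evening complex, 8 were tested, with 3 called higher and 2 lower and a median of -0.14.

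Most other FT homologs were as low as FT2b and FT1a. Of 6 identifiers listed, 5 stayed under 1 RPKM in every column, 4 of them listed at 0 throughout, and the only one tested was not called (log2 change 0.21), with values up to 6.03 RPKM in dehydrated and 3.60 RPKM in watered leaves. Of 8 listed as floral identity and inflorescence genes, 5 stayed under 1 RPKM, 2 were called lower and 1 was not called. Among the listed identifiers, Glyma.10G221500 and Glyma.12G060200 rose, with 96.7 to 104 RPKM in dehydrated against 42.0 to 62.7 RPKM in watered leaves for Glyma.10G221500. Glyma.20G090000 and Glyma.08G255200 fell, with 1.32 to 2.83 RPKM in dehydrated against 11.03 to 14.9 RPKM in watered leaves for Glyma.20G090000. The listed genes called on drying changed between the same columns as E1 and FT5a. Their part in the E1 and FT5a results was not tested.

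Genes whose pattern over the 8 columns was most like a member were sought by Pearson r of log2(RPKM + 1), among genes reaching 5 RPKM in some column. For E1 these were Glyma.09G022200 (r = 0.992), at 6.65 to 7.33 RPKM in dehydrated and 4.5 to 5.0 RPKM in watered leaves, and Glyma.18G022900 (r = 0.991), at 4.62 to 6.13 and 0.355 to 1.09 RPKM. For FT5a they were Glyma.12G069400 (r = 0.975), at 0.256 to 0.595 RPKM in dehydrated and 1.58 to 5.51 RPKM in watered leaves, and Glyma.06G295700 (r = 0.969), at 35.6 to 79.0 and 103 to 222 RPKM. The pattern of E1 was a common one, with 2212 of 24392 genes at r of 0.95 or more, whereas 14 genes reached that value for FT5a, 2 for E1Lb and 0 for E1La and FT4. The closest genes to E1La were Glyma.03G103600 (r = 0.946) and Glyma.18G061600 (r = 0.916). E1Lb was closest to Glyma.15G141900 (r = 0.962) and Glyma.06G049600 (r = 0.955), and FT4 to Glyma.15G008700 (r = 0.924) and Glyma.19G052200 (r = 0.911). All genes share the same 8 columns, in which the treatment is the main axis, so these values are descriptions over 8 points.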

How the data were processed

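Expression was deposited by the authors as RPKM, 1 column per line and treatment, in a table of 56044 genes; the way in which the 2 samples of a group were combined was not given in the sources used here. The aligner was TopHat, per the submitters' processing notes, which name no version. The counter, build and annotation were not given in the sources used here. No column was left without a group. Among genes under 0.3 RPKM throughout, the commonest ratio between columns was shared by at most 3.59% of genes (bins of 0.006 on the log2 scale, 28 pairs), so whole reads were not recovered, depth is unknown and no count test was used.

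Genes that reached 1 RPKM in 2 or more columns (34400) were tested on log2(RPKM + 1) with limma 3.58.1 in R 4.3.3, with empirical Bayes moderation, a trend, two-sided tests and Benjamini-Hochberg adjustment over all genes at 0.05. The drying fit had terms for line and treatment (3 residual degrees of freedom). The fit of transgenic lines against null had group means per treatment (4 residual degrees of freedom), assumed that the lone null column varies as the other lines do, and did not pair the columns of a line. p-values of the drying fit rest on the spread of the drying change between lines. Those of the fit against null rest on the spread of levels between the transgenic lines. Fits were tested on simulated data with no differences in level between lines, so the fit against null was not checked under such differences. A minimum share of recovered changes was required of the drying fit alone, and the power of the fit against null is not reported here. Alternatives were pseudocounts of 0.1 and 5, other filters, other scalings, no trend, no line term, each line left out, and, chosen after seeing the data, exchanged labels of watered null and watered A005B and a fit of A004A and B010C alone. Named genes were the 8 members and, for each tested member, the 2 genes of highest Pearson r; of the further listed identifiers, 2 that rose and 2 that fell were chosen after their values were seen. The members and lists were chosen with earlier results of these data known. The RefSeq gene table matched 0 of the table's identifiers.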

Additional observations from a re-analysis of the deposited data

How the results depend on the processing

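E1 and FT5a kept their direction and their call on drying under all alternatives that tested them. With a mean of at least 5 RPKM required, 0 members were tested as higher and 0 as lower, since none reached that mean, and 7275 genes were called lower in all. E1La was the only called member that lost its call: 1 member was called lower in place of 2 after median-of-ratios scaling (E1La -0.26), after quantile normalization (-0.15), with the labels of watered null and A005B exchanged (adjusted p = 0.0514, limma) and with lines A004A and B010C alone (-0.39). Without each line in turn the count lay between 1 and 1, and E1Lb lay between -0.16 (without B010C) and 0.30 (without A005B).

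For transgenic lines against null in watered leaves, 1 gene was called higher with a pseudocount of 0.1, and 1 lower with a pseudocount of 5, 40 without a filter and 1 without the trend. In dehydrated leaves 16 genes were called higher and 11 lower with a pseudocount of 5, 9 and 48 without a filter, 2 higher after median-of-ratios scaling, 1 higher after quantile normalization, 1 lower with a mean of at least 5 RPKM and 1 lower with exchanged labels. Leaving out a transgenic line gave 0 to 6 higher and 0 to 8 lower, the highest counts without B010C. For the difference of responses, 25 genes were called higher and 25 lower without a filter, and 0 lower with a pseudocount of 5, a mean of at least 5 RPKM, quantile normalization or exchanged labels. Leaving out a line gave 0 to 3 lower, with 3 without B010C. No member was among the calls. The cause of these changes was not tested.

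Uncalled differences from null changed sign. Exchanging the labels turned the watered differences to -0.51 (E1), -0.16 (E1La), -0.48 (E1Lb), 0.61 (FT5a) and -0.011 (FT4), and the differences of responses to 0.35 (E1La), 0.33 (E1Lb) and -0.83 (FT5a). The E1 difference of responses kept its sign under this exchange but moved from 0.0014 to 0.54. With a line left out, dehydrated E1 lay between -0.064 (without A005B) and 0.21, and at -0.037 without B010C. Watered E1 lay between -0.15 (without A005B) and 0.22. Dehydrated E1Lb lay between -0.40 (without B010C) and 0.014 (without A004A). The differences of responses lay between -0.26 (without B010C) and 0.17 for E1, -0.035 (without A005B) and 0.24 for FT5a, and -0.017 (without A005B) and 0.47 for FT4. No paired analysis was possible by replicate number because the columns carry none. Columns were paired by line in the drying fit, and without the line term the calls of members were the same (E1La adjusted p = 0.0429, limma). Depth is unknown, and values of a few hundredths of an RPKM, as for FT2a and FT1a, cannot be ordered.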
